A study of Mus musculus with 9 samples.

Results

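The sites described here are stretches of RNA at which EZH2 and SUZ12, 2 subunits of Polycomb repressive complex 2 (PRC2), had a called peak in every one of 4 dCLIP libraries. Peaks of all libraries were pooled, and peaks that overlapped by at least 1 bp on the same strand were merged into sites. Of 44277 sites, 402 (0.908%) held a peak of all 4 libraries. The sites were thus chosen by the presence and overlap of peak intervals in these same libraries, so recurrence itself is what chose these sites and is not reported as a result. The rule did not use the summit, which is the base of highest signal in a peak, nor the distance to other peaks or the chromosome. It used the edges of peaks only as far as an overlap needs. Summits at these sites lay inside their peaks, so that overlap also limits how far apart they can be.

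The cells were EL 16.7 mouse embryonic stem cells, a female line of the cross CAST/Ei x 129/Sv/Jae, kept under differentiating conditions for 7 days. All 4 libraries came from cells that stably expressed the biotin ligase BirA. The EZH2 libraries added Avi-GFP-mEzh2, as clone 4A in replicate 1 and clone 5A in replicate 2, and the SUZ12 libraries added Avi-GFP-mSuz12, as clone 8E in replicate 1 and clone 8H in replicate 2. Each library was therefore 1 clone of a cell line with an added, tagged protein. A p-value between the proteins sets their difference against the spread between such clones. In the tests of single sites, that spread was also drawn toward the spread over all sites fitted. In dCLIP the tagged protein is biotinylated in the cell, fixed to RNA by UV light and pulled down on streptavidin after the RNA has been trimmed with RNase. The series also held a mock library (BirA and empty vector, clone 2H) and PRO-seq libraries of wild-type and SUZ12-degron cells, which were not analysed here, so no value below is set against an untagged control.

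PRC2 is a chromatin regulator that silences developmental genes. EZH2 is its catalytic subunit and methylates histone H3 at lysine residue K27, and SUZ12 is a scaffold subunit that the enzyme needs for stability and activity. Both proteins belong to the core of the same complex, and PRC2 is known for binding RNA, including nascent transcripts and long noncoding RNAs such as the one that coats the inactive X chromosome. The study's title places these contacts in the control of transcription elongation. The coordinates are of the mouse build mm9, and no annotation of that build was used here, so sites are named by position and strand and no gene, exon or sequence is given for them.

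Peaks of a library numbered 10468 and 13267 in EZH2 replicates 1 and 2 and 11580 and 13951 in SUZ12 replicates 1 and 2. The 402 sites held 1647 of these peaks. Lists of peaks do not show read depth, so the precision of a position rests on the spread between libraries. No pair of libraries shared an interval with the same start and end (0 identical intervals in each of the 6 pairs), so none was a copy of another.

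The 402 sites were short. Their length had a median of 290 bp, with quartiles at 239.25 and 421.25 bp and extremes at 135 and 9088 bp. They lay on both strands alike, 209 on the plus and 193 on the minus strand. At 382 sites each library had exactly 1 peak, and at 20 at least 1 library had 2 or more. Where a library had several, the peak with the lowest p stood for it. At 368 sites at least 1 base was covered by all 4 of these peaks, and this common stretch had a median of 148.5 bp (quartiles 102.75 and 194.25 bp), which was a median of 56.7% of the site. At the other 34 sites no base was covered by all 4 of these peaks. Where a library had other peaks there, all 4 libraries could still share a base, as at chr17:23959720-23960747 on the plus strand.

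The threshold of the rule was met with room at most sites. The margin of a join was the distance from the start of a peak to the furthest end of the peaks before it. This margin can exceed the width of a narrow peak, so it is not the overlap itself. The smallest margin in a site had a median of 181 bp. It was lowest, 11 bp, at 3 sites: chr17:23959720-23960747 on the plus strand, and chr12:114174811-114175724 and chr1:34870424-34870809 on the minus strand. Positions are written as chromosome, first base and last base. Just outside the rule stood sites of 3 libraries whose missing library had a peak close by. The closest gaps were 5 bp at chr5:53982372-53982789, on the plus strand, where SUZ12 replicate 2 was missing, 25 bp at chr13:29043225-29043465, on the minus strand, without SUZ12 replicate 1, and 27 bp at chr6:83003996-83004479, on the minus strand, without EZH2 replicate 1. Of 539 sites in 3 libraries, 9 had a peak of the missing library within 100 bp. No library was missing far more often than another: 140 of these sites lacked EZH2 replicate 1, 127 EZH2 replicate 2, 133 SUZ12 replicate 1 and 139 SUZ12 replicate 2.

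How closely independent clones marked the same base was asked with the summits. The distance from the first to the last of the 4 summits had a median of 70.5 bp, with quartiles at 47 and 125.75 bp. It was at most 20 bp at 15 sites, at most 50 bp at 112 sites (27.9%), at most 100 bp at 272 (67.7%) and at most 300 bp at 360. All 4 summits lay inside the stretch covered by all 4 peaks at 233 sites. The 4 summits thus lay mostly within 100 bp, and spans of at most 20 bp were uncommon. Overlap of the peaks, by which the sites were chosen, already keeps summits near each other. How much of the agreement comes from that was not tested.

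The tightest site was chr4:118781364-118781585, on the plus strand, where the summits of EZH2 replicates 1 and 2 and SUZ12 replicates 1 and 2 were at 118781477, 118781476, 118781483 and 118781475, a span of 8 bp. Its peaks were 159, 195, 171 and 153 bp wide in that order, which is the order of libraries in all lists of 4 values here. The minus-strand site chr1:160008958-160009192 had summits at 160009085, 160009084, 160009097 and 160009083, a span of 14 bp. Both had peaks several times wider than the spread of their summits.

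The plus-strand sites chr5:121654926-121655215 and chr2:166890485-166890949 had spans of 15 bp. The minus-strand sites chr2:102438708-102438908 and chr4:148554181-148554372 had spans of 16 bp. All 6 of these sites had a common stretch, of 71 to 223 bp. The chromosome 2 plus-strand site shows that edges and summits can part: its peaks were 229, 388, 457 and 429 bp wide, with EZH2 replicate 1 the narrowest, yet its summits lay at 166890825, 166890839, 166890824 and 166890825.

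At the other end, the 6 sites with the widest spans had no base common to the 4 chosen peaks. At chr17:23959720-23960747 (plus strand) the chosen summits spanned 890 bp, and each library had 2 peaks, so that different peaks of one stretch stood for the libraries. At chr10:72664588-72665558, on the plus strand, SUZ12 replicate 1 had a peak of 895 bp where EZH2 replicate 2 and SUZ12 replicate 2 had 2 separate peaks, and the span was 672 bp. The minus-strand sites chr9:78326702-78327566 and chr13:58228936-58229972 had spans of 656 and 607 bp. In these sites the span describes several neighbouring peaks and not the spread of a single summit.

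The widest spans of all, 6337 and 5474 bp, belonged to sites over 3 kb, of which there were 3, all on the minus strand. The site chr7:17502026-17510000 had peaks of 172, 182, 303 and 7834 bp. The site chr6:119910913-119920000 had peaks of 210, 99, 99 and 9088 bp. The third, chr15:77602350-77610000, had peaks of 7651, 189, 157 and 54 bp. In each, a single library held a peak that ran to a multiple of 10 kb and bridged narrow peaks of the others, and the next longest site measured 1155 bp. The chromosome 15 site still had summits within 37 bp, because the long peak of EZH2 replicate 1 had its summit at the place of the narrow ones.

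Whether clones of a protein placed the summit closer together than clones of different proteins was asked over the 6 pairs of libraries. The median distance between summits was 35 bp for the EZH2 clones and 20.5 bp for the SUZ12 clones. Between the proteins it was 38 bp for EZH2 replicate 1 and SUZ12 replicate 1, 40 bp for EZH2 replicate 1 and SUZ12 replicate 2, 42 bp for EZH2 replicate 2 and SUZ12 replicate 1, and 44 bp for EZH2 replicate 2 and SUZ12 replicate 2. Both pairs within a protein were thus closer than all 4 pairs between proteins, the EZH2 pair by only 3 bp.

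The means were 27.75 bp within and 41 bp between proteins, a difference of -13.25 bp (exact permutation test over the 3 ways to pair the libraries, two-sided p = 0.333, the smallest these allow). Summits lay within 10 bp of each other at 30.6% of the sites for the SUZ12 clones, 19.7% for the EZH2 clones and 11.4 to 15.7% for the pairs between proteins. Without SUZ12 replicate 2 it was -5 bp, without SUZ12 replicate 1 -7 bp, without EZH2 replicate 1 -22.5 bp and without EZH2 replicate 2 -18.5 bp. On the plus strand the difference was -18.5 bp and on the minus strand -3.75 bp, where the closest pair was EZH2 replicate 1 with SUZ12 replicate 1 at 27 bp, ahead of the SUZ12 clones at 28 bp. Once the median offset of each library and strand had been subtracted, the means were 26 and 29.5 bp, a difference of -3.47 bp, and the EZH2 clones, at 34.25 bp, were the farthest apart of the 6 pairs. Between clones of a protein, summits at sites that only the EZH2 pair held were 59.5 bp apart in the median (n = 364 sites), and 41 bp at sites that only the SUZ12 pair held (n = 461).

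**Figure D1:**
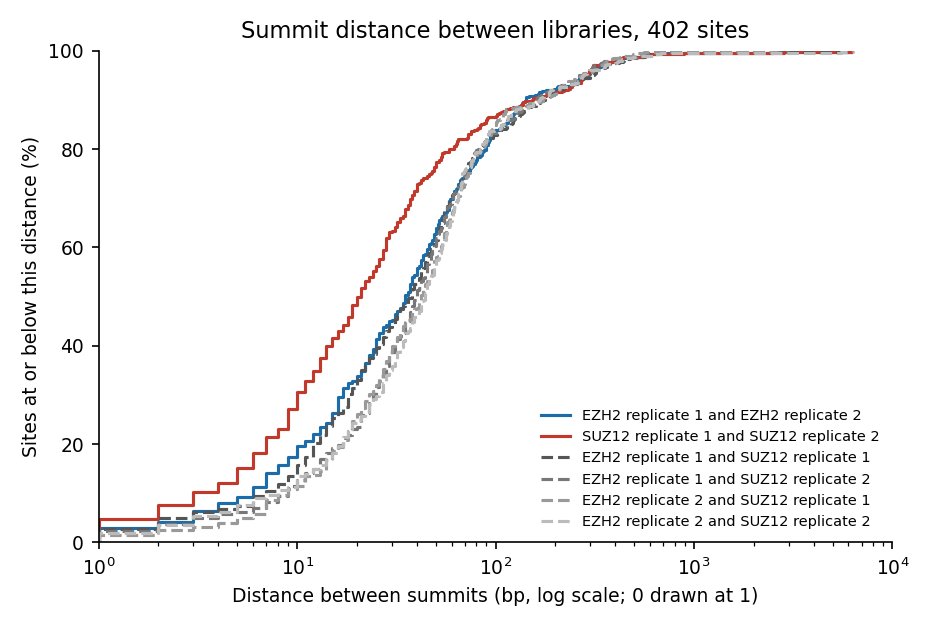
Share of the 402 sites (percent) whose summits in 2 libraries lie at or below a given distance (bp, log scale), with 1 line for each of the 6 pairs of libraries. The line of the SUZ12 clones (median 20.5 bp) runs above the other 5 (medians 35 to 44 bp) up to about 100 bp, and the line of the EZH2 clones runs close to the pairs between proteins.

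The offset between the proteins had a direction. In genome coordinates, the SUZ12 summit (mean of the clones) lay at a higher position than the EZH2 summit at 313 sites and at a lower one at 86, with a median difference of 25.75 bp. Both SUZ12 summits lay above both EZH2 summits at 173 sites, which is 43% of the 402, and below them at 19, which is 4.73%. The median difference was 34.5 bp on the plus strand and 21.5 bp on the minus strand. It therefore pointed along the RNA on the plus strand and against it on the minus strand, taking the deposited strand as that of the RNA. Between clones of a protein, the summit of replicate 2 lay above that of replicate 1 at 173 sites and below at 225 for EZH2. For SUZ12 the numbers were 234 and 159.

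The lower-coordinate edges pointed the same way. That of the SUZ12 peak lay above that of EZH2 at 335 of 402 sites, by a median of 36.5 bp. Both SUZ12 edges lay above both EZH2 edges at 241 sites (60% of the 402) and below at 13 (3.23%). Clones of 1 protein gave uneven counts too. The lower edge of replicate 2 lay above that of replicate 1 at 116 sites and below at 283 for EZH2. For SUZ12 it lay above at 253 and below at 146. On the minus strand alone SUZ12 gave 161 and 31, against 155 and 37 between the protein means. Sites of the same libraries are not replicates. For the higher-coordinate edge the signed difference, SUZ12 minus EZH2, had a median of 1.25 bp, since sites went both ways. SUZ12 was higher at 213 sites and lower at 189. Both SUZ12 higher edges lay above both EZH2 higher edges at 65 sites (16.2%) and below them at 60 (14.9%). The lower edge thus differed mostly in 1 direction, on both strands, while differences at the higher edge went both ways and nearly cancelled in the median.

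On the plus strand, offsets of the lower edge from the mean of the 4 libraries had medians of -16, -25.5, 20.75 and 17.5 bp, so that both clones of a protein stood together. On the minus strand the medians were -10.5, -20.75, -2.75 and 34.5 bp, and SUZ12 replicate 2 stood apart from all others. There its lower edge lay a median of 36 bp above that of SUZ12 replicate 1, against 10 bp between SUZ12 replicate 1 and EZH2 replicate 1 and 20 bp between SUZ12 replicate 1 and EZH2 replicate 2. The lower edge of SUZ12 replicate 2 lay 43 and 57 bp above those of EZH2 replicates 1 and 2. The offset between the proteins on the minus strand was thus larger in SUZ12 replicate 2 than in SUZ12 replicate 1. The cause of these offsets was not tested.

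**Figure D2:**
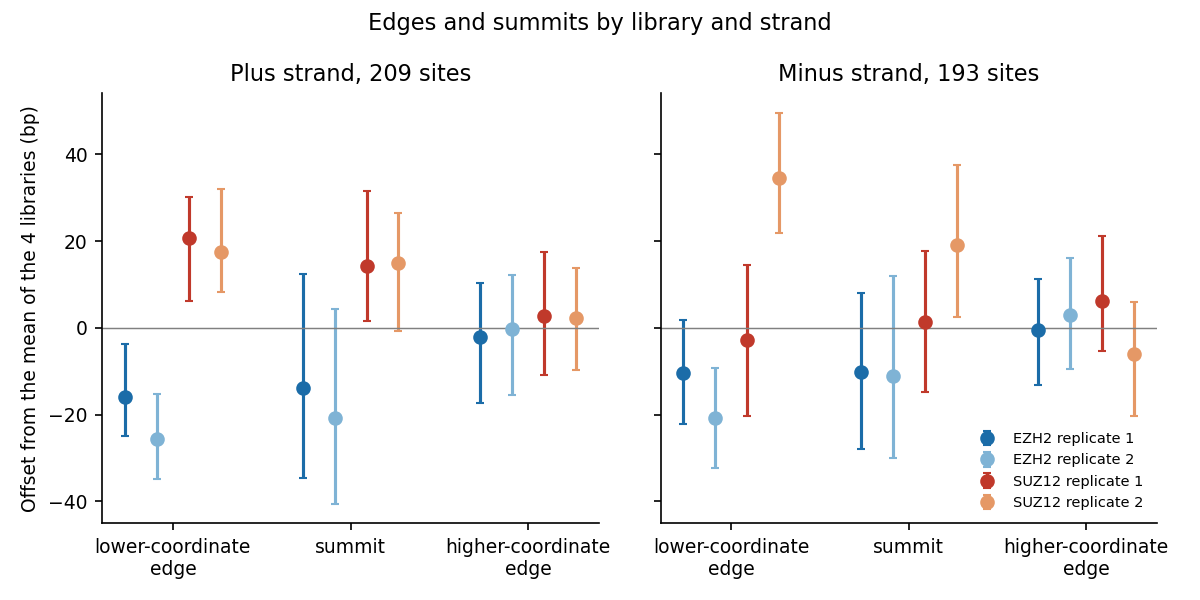
Median offset (bp) of the lower-coordinate edge, the summit and the higher-coordinate edge of each library from the mean of the 4 libraries at the same site, for 209 plus-strand and 193 minus-strand sites, with bars from the first to the third quartile over sites. EZH2 lies below and SUZ12 above 0 at the lower edge of the plus strand, SUZ12 replicate 2 stands apart (34.5 bp) on the minus strand, and all medians of the higher edge lie between -6 and 6.25 bp.

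Width at the same site was compared next. Median widths over the 402 sites were 226 and 233 bp in the EZH2 libraries and 213.5 and 182 bp in the SUZ12 libraries. Both EZH2 medians exceeded both SUZ12 medians, and the SUZ12 clones lay further apart than the EZH2 clones. The means were 229.5 ± 4.95 bp (SD, n = 2) for EZH2 and 197.75 ± 22.3 bp (SD, n = 2) for SUZ12, a difference of -31.75 bp that was larger than either SD (exact permutation test, two-sided p = 0.333, the smallest possible). It was -16 bp without SUZ12 replicate 2 and -47.5 bp without SUZ12 replicate 1. By strand, the EZH2 medians were 225 and 232 bp on the plus and 229 and 236 bp on the minus strand. The SUZ12 medians were 198 and 197 bp on the plus strand, but 223 and 169 bp on the minus strand, where SUZ12 replicate 1 came close to EZH2.

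**Figure D3:**
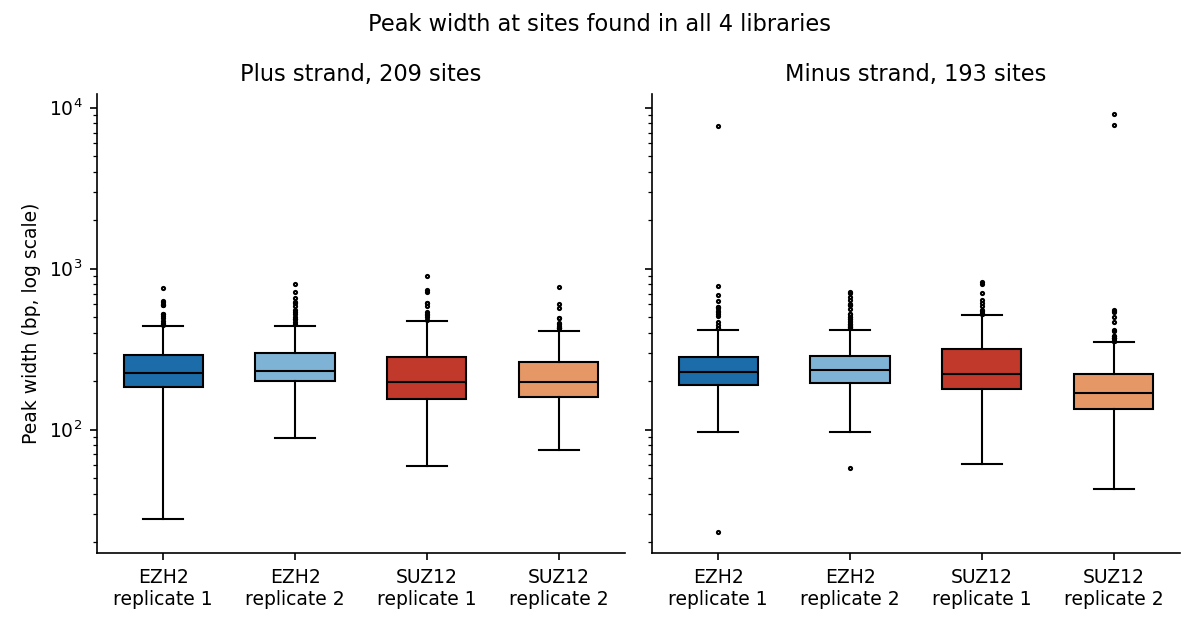
Peak width (bp, log scale) at the 402 sites in each library, for the plus strand (209 sites) and the minus strand (193 sites). Boxes run from the first to the third quartile with the median as a line, whiskers reach the last value within 1.5 box lengths, and points are sites beyond; the 3 points above 3 kb are the 3 long sites, and SUZ12 replicate 2 is the narrowest library on the minus strand (169 bp).

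Site by site, the mean log2 width of EZH2 was higher at 313 of 402 sites (77.9%), and the median ratio of SUZ12 to EZH2 width was 0.854. Both EZH2 peaks were wider than both SUZ12 peaks at 165 sites, 41% of the 402, and both SUZ12 peaks were wider at 20, or 4.98%. The direction depends on the scale. Divided by the median width of all peaks of the same library (177, 188, 151 and 138 bp), the widths at these sites were 1.28 and 1.24 times that median in EZH2 and 1.41 and 1.32 times in SUZ12, so the excess over the library was larger in SUZ12 by 0.108. This ratio is a description only: wider peaks overlap more easily, so it draws on the intervals that chose the sites, and the SUZ12 lists hold narrower peaks to begin with. The commonest width was 99 bp in all 8 lists. Outside 90 to 110 bp the commonest width differed, and was 188 to 196 bp in the EZH2 lists and 148 to 173 bp in the SUZ12 lists. The part of such list-wide differences in the width gap at the 402 sites was not tested.

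Single sites were tested with limma on log2 width over all 941 sites found in 3 or 4 libraries, with Benjamini-Hochberg adjustment. Of all sites tested, 0 passed (0%), and the smallest adjusted p among the 402 was 0.455. At an unadjusted p of 0.05, 21 of the 402 sites were reached, against a background of 6.16% of all tested sites. For a single site the 95% interval reached a median of 0.73 to either side on the log2 scale, against a median difference of -0.23, so a shift of the typical size was not detectable at a single site with 4 libraries.

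The sites with the largest ratios show what such differences look like. Toward EZH2, apart from the long chromosome 15 site, the site chr6:28376144-28376682 (plus strand) had peaks of 439, 539, 138 and 174 bp. The site chr10:80644796-80645101 (plus strand) had 304, 164, 73 and 75 bp, and chr10:79446292-79446793 on the minus strand had 430, 183, 61 and 123 bp. In these 3 sites the groups did not overlap, and in the last 2 EZH2 replicate 1 was more than 1.5 times as wide as EZH2 replicate 2. At the chromosome 10 plus-strand site all 4 summits nevertheless lay within 19 bp.

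Toward SUZ12, apart from the long sites, the site chr12:114174811-114175724 (minus strand) had peaks of 170, 204, 497 and 468 bp. On the plus strand, chr9:120868867-120869501 had 99, 96, 586 and 229 bp, and chr4:137097363-137097785 had 78, 99, 386 and 169 bp. The site chr10:72664588-72665558 (plus strand) had 157, 174, 895 and 197 bp. Except at the chromosome 12 site, most of the difference was the wide peak of SUZ12 replicate 1, and none of these 4 sites had a base common to all chosen peaks.

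The summit and both edges were tested in the same way, read along the deposited strand. For the summit, 0 of the 402 sites passed an adjusted p of 0.05 in limma with Benjamini-Hochberg adjustment, against a background of 0.106% of 941 sites, and 24 had an unadjusted p under 0.05 (background 6.38%). For the downstream edge, 0 passed (background 0.213%), with 21 under an unadjusted p of 0.05 (background 6.91%). For the upstream edge, 3 of the 402 passed (background 0.319%) and 61 had an unadjusted p under 0.05 (background 10.8%). Each background is a share of all 941 sites, the 402 included. The 3 were the only ones of the 941 to pass for this edge, so that background holds nothing else. Each of the 3 had an adjusted p of 0.0426, and in each the EZH2 peak began further upstream. Read in genome coordinates, 0 of the 402 sites passed for the lower edge (background 0.106%; 31 under an unadjusted p of 0.05, background 7.86%) and the same 3 for the higher edge (background 0.425%; 22 under an unadjusted p of 0.05, background 7.01%), all by the same test in limma. The count for the higher edge was 8 when the fit held only the 402 sites, 4 with only sites that had a common base, 0 with the replicate block, 0 with 1 peak per library, 1 without EZH2 replicate 2 and 0 without any other single library. That for the lower edge was 2 without EZH2 replicate 2.

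All 3 sites lay on the minus strand, where upstream is the higher coordinate. At chr13:113368332-113369027 the peaks were 686, 666, 273 and 218 bp wide, and the upstream edge of SUZ12 lay 409.5 ± 15.3 bp (SE) further downstream. At chrX:73374156-73374735 they were 575, 522, 207 and 146 bp wide, and the edge differed by 363.5 ± 13.8 bp (SE). At chr6:124864341-124865051 they were 630, 704, 363 and 63 bp wide, and it differed by 323.5 ± 13.4 bp (SE).

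The chromosome 13 and X sites were not shorter in SUZ12. Both SUZ12 libraries had a second peak there, from 113368821 to 113369027 and from 113368858 to 113368996 on chromosome 13, and from 73374632 to 73374735 and from 73374609 to 73374731 on X. With the second peaks, the outermost higher edges of the 4 libraries lay within 31 bp on chromosome 13 and 16 bp on X, and the outermost lower edges within 43 and 54 bp. EZH2 thus had 1 long peak where SUZ12 had 2 short ones over the same stretch, in both clones of each protein. No site showed the opposite, 2 or more peaks in both EZH2 libraries and 1 in both SUZ12 libraries (0 of 402).

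These 2 were also the only sites of the 402 with 1 peak in each EZH2 and 2 or more in each SUZ12 library. When only sites with 1 peak per library were kept, 0 of 382 passed for the upstream edge, with a smallest adjusted p of 0.110 in limma. With the replicate number as a block, 0 passed, with 0.187. With any 1 of the 4 libraries left out, each of the 3 sites missed the threshold, at adjusted p values of 0.164 to 0.324 in limma.

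Several peaks within a site were otherwise mostly a matter of 1 library: of the 20 such sites, 12 had them in 1 library, 3 in 2, 1 in 3 and 4 in all. The 4 were chr7:89919464-89920618, chr4:78419625-78420202 and chr17:23959720-23960747 on the plus strand and chr8:98269872-98270159 on the minus strand. The chromosome 7 site was the strongest of the 402 by its weakest FDR, the false discovery rate that the authors' peak caller gave each peak. Its first peaks were 552, 562, 527 and 498 bp wide with summits at 89919578, 89919601, 89919609 and 89919600, a span of 31 bp. Its second, stronger peaks were 598, 658, 614 and 600 bp wide, with summits at 89920257, 89920114, 89920288 and 89920521, a span of 407 bp. All libraries drew the same pair of peaks with like widths, and placed the summit alike in the first and apart in the second.

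The other 7 of the 8 strongest sites had 1 peak per library and a base common to all 4. On the minus strand, chr12:81542289-81542578 had widths of 274, 287, 282 and 190 bp and a summit span of 26 bp, chr7:7230582-7230857 had 242, 258, 270 and 179 bp and a span of 41 bp, and chr4:45359304-45359662 had 334, 331, 339 and 249 bp and a span of 45 bp. In these 3 the narrowest peak was that of SUZ12 replicate 2 and the other 3 libraries lay close together. The minus-strand site chr9:56071336-56071823 had 326, 476, 482 and 357 bp and a span of 102 bp. Another, chr1:115800478-115800952, had 463, 468, 463 and 412 bp, with summits 198 bp apart although its edges nearly coincided. On the plus strand, chr16:17222326-17222660 had 273, 268, 285 and 248 bp and a span of 39 bp, and chr16:23111340-23111805 had 171, 387, 422 and 179 bp and a span of 24 bp. Of the 8 strongest sites, 5 had a summit span under 50 bp and 7 had no other peak within 10 kb on their strand.

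Strength varied widely over the 402 sites. The best peak of a site had a median rank of 6.50%, 5.54%, 6.33% and 4.37% from the top of the list of its library by p, and 225, 241, 229 and 249 sites were in the first 10% of their list. Yet 62, 54, 51 and 48 sites ranked in the last 50%, so a peak in all libraries was not always a strong one in each. The order of sites by p was partly shared: Spearman's rho over the 402 sites was between 0.493, for the SUZ12 clones, and 0.706, for EZH2 replicate 2 with SUZ12 replicate 2. For width it was between 0.428 and 0.524. The points of these correlations are sites of the same libraries and not replicates.

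Summit agreement moved with strength. In 5 groups of 80 or 81 sites ordered by their weakest FDR, from strongest to weakest, the median summit span was 55, 63, 74, 83.5 and 87 bp. It rose at each step.

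The surroundings were compared with those of sites found in fewer libraries, by counting the summits of other peaks around each site. No other peak of any library lay within 10 kb on the same strand at 196 of the 402 sites (48.8%), against 24.9% of 539 sites in 3 libraries, 19.4% of 2637 in 2 and 29.2% of 40699 in 1. Within 5 kb the shares were 56.5%, 33.8%, 31.5% and 44.9%, and within 50 kb 30.8%, 13.0%, 7.70% and 8.98%. By this count sites in all libraries were the most often alone at each distance, and the classes in between were not ordered.

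Counted within each library alone, the pattern was mixed. At 10 kb the share of peaks with no other peak of their own library was 68.8%, 67.7%, 58.3% and 64.4% at the 402 sites and 66.6%, 64.2%, 61.0% and 63.1% elsewhere, lower at the 402 sites in SUZ12 replicate 1 and higher in the other 3. At 5 kb it was lower at the 402 sites in all 4 libraries, at 75.6%, 75%, 67.0% and 73.1% against 78.9%, 78.0%, 73.9% and 77.7%. At 50 kb it was higher in all 4, at 51.0%, 46.4%, 45.1% and 41.6% against 34.0%, 29.4%, 30.1% and 28.7%. Within their own library, peaks at the 402 sites thus more often had another peak within 5 kb and less often any within 50 kb. This count was per peak, over 410, 412, 412 and 413 peaks at the 402 sites. The count per site over all libraries went the other way at 5 kb. Both are counts over these lists with no test.

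**Figure D4:**
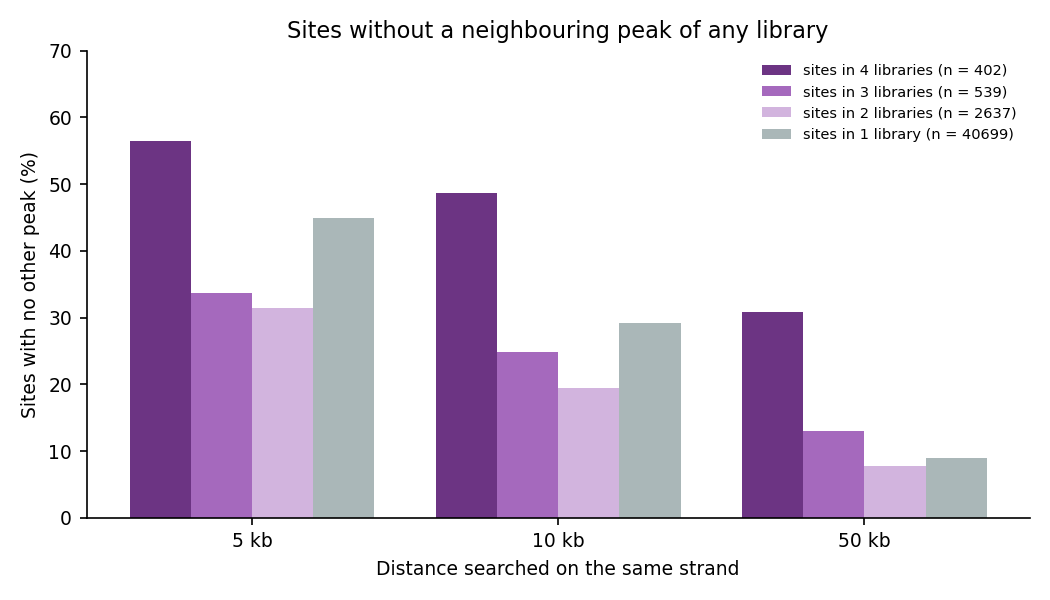
Share of sites (percent) with no other peak of any library on the same strand within 5, 10 and 50 kb, for sites found in 4, 3, 2 and 1 libraries. The bar of sites in 4 libraries is the tallest at each distance (56.5%, 48.8% and 30.8%).

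Sites without neighbours also had closer summits. The 196 sites without a neighbour within 10 kb had a median summit span of 59.5 bp, a common stretch of 171 bp and a length of 264.5 bp. The 206 with neighbours had 91 bp, 101 bp and 328 bp. Of the 34 sites without a base common to the chosen peaks, 33 were among those with neighbours and 1 among the lone ones. Merging joins overlapping peaks in chains, so span, common stretch and length all depend on it. The part of merging in these differences was not tested. Peaks at lone sites were wider in every library, with medians of 234.5, 244.5, 222 and 191.5 bp against 215, 219.5, 199.5 and 169 bp, while the log2 difference between the proteins was -0.23 in both groups. By strength, 53 of the 81 strongest sites were alone, against 32 of 80, 32 of 80, 36 of 80 and 43 of 81 in the following groups, so isolation did not fall steadily with strength.

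Few of the 402 sites stood beside another. The median gap to the next such site on the same strand was 6886 kb. When sites were joined over gaps of up to 10 kb, 24 of them (5.97%) fell into 11 stretches, of 1311 to 9224 bp. The same joining gathered 6.68% of sites in 3 libraries, 22.4% in 2 and 69.4% in 1, classes whose sizes differ too much for a comparison. The stretches chr10:80640395-80645101, on the plus strand, and chr1:88247674-88253309, on the minus strand, held 3 sites each. The most crowded site of each had 15 other peaks of any library within 10 kb.

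The other 9 stretches held 2 sites each. Chromosome 1 carried 6 of the 11, with 13 of its sites: besides the one named, they were chr1:180258748-180267971, chr1:24618674-24622217 and chr1:183848432-183854014 on its minus strand, and chr1:89673523-89681487 and chr1:40046935-40054036 on its plus strand. Of the rest, chr6:122678166-122679476 on the minus strand was the shortest, and chr8:109192405-109194165 on the plus strand measured 1761 bp. The stretches chr4:140881099-140885167 on the plus strand and chr2:158182101-158185727 on the minus strand had at most 8 and 4 other peaks within 10 kb of a site.

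Sites on opposite strands met in 2 places. The strongest site, on the plus strand of chromosome 7, shared 465 bp with the minus-strand site chr7:89920112-89920576. The plus-strand site chr5:115301724-115302125 shared 106 bp with the minus-strand site chr5:115302020-115302277. A peak on the opposite strand lay within 10 kb of 15.7% of the 402 sites, against 11.7%, 14.3% and 10.1% of sites in 3, 2 and 1 libraries. Values this close are not set apart here.

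By chromosome, the sites did not simply follow the peaks. Chromosome 1 held 46 of them (11.4%), where it held 6.11 to 6.75% of the peaks of a library, and was the first by number. Chromosome 11 followed with 36 (8.96%, against 7.36 to 8.41% of peaks) and chromosome 6 with 29 (7.21%, against 6.07 to 6.54%). Among the chromosomes with a lower share, chromosome 2 held 20 (4.98%), below its 6.89 to 7.93% of peaks, and chromosome 5 held 16 (3.98%), below 6.28 to 6.38%. Chromosome 8 held 18 (4.48%), below 6.35 to 7.04%. Since 13 of the 46 sites of chromosome 1 lay in its 6 stretches, not all of them are separate places.

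In differentiating female cells, 1 copy of the X chromosome is silenced with PRC2's participation. Whether any site here has to do with that was not tested. The X chromosome held 22 sites (5.47%), above the 3.35 to 3.94% of peaks that lay on it. They were 12 on the plus and 10 on the minus strand, and 17 of the 22 had no other peak within 10 kb. Chromosome 3 was alike, with 16 of its 20 sites alone, and chromosome 6 was the reverse, with 6 of 29. On chromosome Y there was 1 site in these cells labelled female, chrY:327999-328251 on the minus strand, with peaks of 246, 253, 222 and 185 bp and summits within 42 bp. Chromosome M held none of the 402. These shares were not tested, since sites are not replicates.

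**Figure D5:**
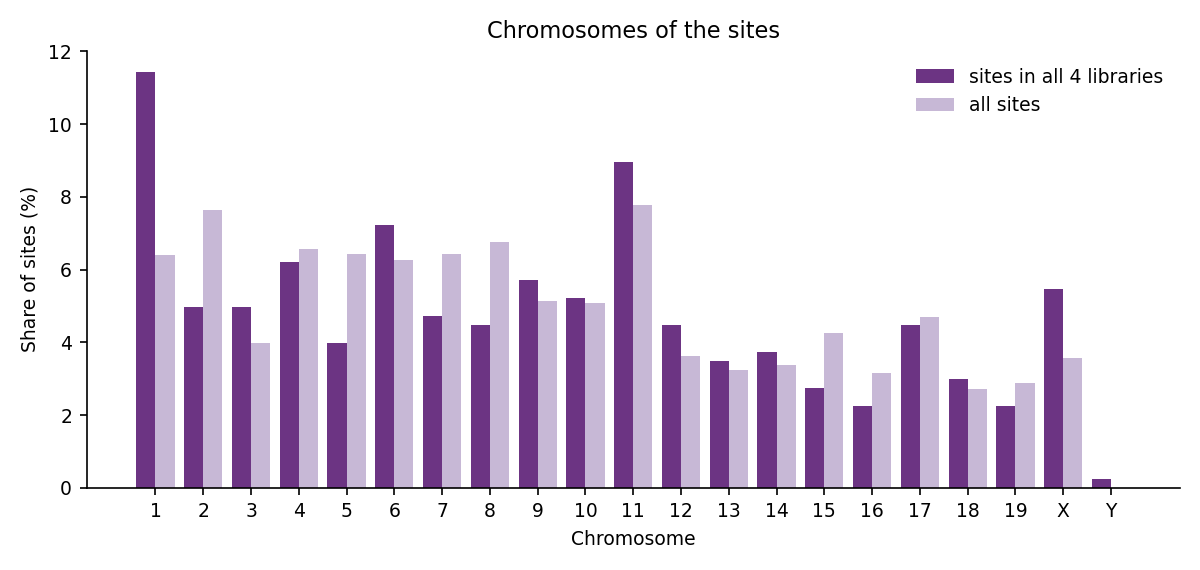
Share (percent) of the 402 sites and of all 44277 sites on each chromosome. Chromosomes 1 (11.4% against 6.40%) and X (5.47% against 3.57%) are among those with a higher share of the 402 sites than of all sites, and chromosomes 2 (4.98% against 7.64%) and 5 (3.98% against 6.42%) among those with a lower one.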

How the data were processed

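The authors deposited 8 peak lists, 1 for each of the 4 dCLIP libraries and strand, with interval, strand, summit and the p-value and FDR of each peak. These p-values and FDRs are the authors' own, and they rank peaks within a list here. The p-values were read from the peak names. The FDRs were read from a separate column of the deposited lists, which have no header. Peak names carry the prefix of PeakRanger. Which version, settings and control were used is not given in the sources used here. Per the submitters' processing notes, the upstream tools were bedtools 2.17.0, SAMtools 0.1.18, TopHat2 2.0.8 and Trim Galore 0.3.3, with the build mm9. Summit positions were taken as counted from 0, like the starts, and all positions are given counted from 1. In the plus-strand lists 480, 764, 27 and 66 summits lay at or before the start. In each minus-strand list 0 did, and 507, 756, 145 and 55 lay 1 base above it. The counting of summits may thus differ by strand, and printed minus-strand summits may be 1 bp too high.

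Peaks overlapping by at least 1 bp on a strand were merged into sites over the 4 libraries. Merging joins peaks in chains. The peak with the lowest p, then the widest, stood for a library. Width (log2), summit and edges were fitted per site with limma, SUZ12 minus EZH2, over the 941 sites with a peak in at least 3 libraries (a missing library stayed missing), two-sided, with Benjamini-Hochberg adjustment at 0.05. Library medians were compared by exact permutation over the 3 splits. The sites named are the 8 with the lowest maximum FDR, the 6 with the smallest and the 6 with the largest summit span, the 6 with the largest width ratio in each direction, those past an adjusted threshold, the stretches with the most sites, and sites on chromosome Y or M. Sites with identical edges in all libraries were also to be named, and there were 0. Sites just inside or outside the rule, with several peaks in every library, in the 3 stretches beyond the first 8, or over 3 kb, and those that overlap on opposite strands, were singled out after their values were seen. The sites and tests were chosen with earlier results of these data known. Same-numbered libraries did not deviate together, with correlations of -0.0234 (log2 width) and -0.0490 (summit) over the 402 sites, so the numbers were not taken to pair them. Alternatives covered stricter FDR limits, peaks set to 100 bp, single-peak sites, the replicate block, other scales and leaving out each library. Merging and fits were tested on simulated data. Read depth is unknown from such lists. Gene lists, location in transcripts and sequence were not analysed here. Analyses ran in Python 3.11.15 (NumPy 2.4.6, pandas 2.3.3) and R 4.3.3 with limma 3.58.1.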

Additional observations from a re-analysis of the deposited data

How the results depend on the processing

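The difference in median width between SUZ12 and EZH2 kept its direction over settings in bp, at -47.5 to -16 bp with a library left out, and reversed on relative scales, to 0.108 with widths over the median of the library and 0.0712 over that of the list of library and strand. The summit distance within minus between proteins kept its sign in 14 of 14 settings, at -22.5 to -5 bp with a library left out. Among them, the FDR limit of 0.01 kept the same 402 sites and so could not change it. The minus strand alone gave -3.75 bp (exact permutation test, two-sided p = 0.667). A mean over sites in place of the median gave -2.12 bp (exact permutation test, two-sided p = 1).

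The count of 3 upstream edges past the threshold in limma fell to 0 with the replicate block (smallest adjusted p 0.187), to 0 with 1 peak per library, to 0 on the plus strand alone and to 0 for the edge with the lower coordinate, and it was 0 to 1 with a library left out. The differences themselves stayed at 317.5 to 419.5 bp over the 3 sites with a library left out. For the downstream edge the count was 0 to 2 with a library left out, with 2 without EZH2 replicate 2, and 3 for the edge with the higher coordinate, which holds the upstream edges of the minus strand. That count for the higher edge was 0 with the replicate block as well (smallest adjusted p 0.108). The block changed no call for width, summit, the downstream edge or the lower edge. Counts for width and summit stayed at 0 with any library left out. Without SUZ12 replicate 2 the width difference at the long chromosome 6 site at 119910913 turned to -0.54 on the log2 scale, the low end of a range that reached 5.98 without SUZ12 replicate 1. Sites in stretches numbered 24 at 10 kb, 18 at 5 kb and 39 at 50 kb, and lone sites 196, 227 and 124. The cause of these changes was not tested. Beyond this, 2 clones per protein limit every comparison between the proteins, and peak lists give no depth.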
